A study of Mus musculus with 10 samples.

Results

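Collagens are the structural proteins of the extracellular matrix, each built from chains wound around one another in a helix, and 36 genes that encode such chains were measured in the mouse optic nerve head. They were all genes whose symbol is Col, a number, a and a number, among 12393 genes with a probe set annotated to 1 gene, and each gene was represented by its probe set with the highest mean over the 10 arrays. The tissue came from C57Bl/6 male mice aged 6 to 8 weeks with no transgene named in the labels. In 5 pools the right eye had been cannulated in the anterior chamber and held at 30 mmHg for 1 hour, with the tissue taken 3 days later (high IOP, for intraocular pressure), and in 5 pools the unoperated left eye served as the control. Each array held a pool of 2 nerve heads and 10 mice were used in all, so that cannulation and side of the body went with the pressure and cannot be told apart from it. Pools of 2 on 10 arrays make both groups eyes of the same 10 mice. Although labelled as biological replicates, the pools are not tied to named animals, so whether pools of equal number in the 2 groups shared mice is not known.

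The optic nerve head is where the axons of retinal ganglion cells leave the eye. In the mouse it is supported mainly by astrocytes rather than by plates of connective tissue, and collagens lie in the surrounding sclera and meninges, in vessel walls and in the basement membranes on which astrocytes and endothelium rest. Fibrillar collagens form the rope-like fibrils of connective tissue, basement membrane collagens form sheets under cells and around vessels, and FACIT collagens (fibril-associated collagens with interrupted helices) sit on the surface of fibrils. The remaining chains include the beaded filaments of type VI, the network-forming types VIII and X and collagens that span the cell membrane. Of the 36 genes, 9 were fibrillar, 8 belonged to basement membranes (type IV with the related types XV and XVIII), 9 were FACIT and 10 were grouped as other. A further 9 chains of these classes were not analysed here.

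Array medians of probe set intensity lay between 414 and 475, and precision is limited by having 5 arrays a group. Astrocyte markers ranged from a mean intensity of 192 for Slc1a2 to 12203 for Gja1, a gap junction gene. Markers of connective tissue fibroblasts were also measured in every pool, from 192 for Fbln2 to 11376 for Mgp, an inhibitor of calcification. Of the markers of peripheral Schwann cells 1 of 5 was measured. High IOP array 1 stood apart from the others, with a mean correlation of 0.974 with the rest of the arrays against 0.986 or more for each of the others. Its effect on a value is given beside several results below. In pooled bulk tissue, fewer cells of a type and less RNA per cell cannot be told apart.

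Promoter windows from RefSeq (build GRCm38.p6) were found for 27 of the 36 genes, and 3 sets of neighbouring chains are shown because their transcripts are compared across arrays below. Each sequence runs 5' to 3' on the gene's strand, from 250 bases before the annotated start to 30 after it. Col4a1 and Col4a2, the main chains of basement membranes, lie head to head on chromosome 8, at chr8:11312797-11313076 on the minus strand and chr8:11312555-11312834 on the plus strand. Their annotated starts are 21 bases apart, and the capitals mark the 38 bases that both printed windows share.
Col4a1: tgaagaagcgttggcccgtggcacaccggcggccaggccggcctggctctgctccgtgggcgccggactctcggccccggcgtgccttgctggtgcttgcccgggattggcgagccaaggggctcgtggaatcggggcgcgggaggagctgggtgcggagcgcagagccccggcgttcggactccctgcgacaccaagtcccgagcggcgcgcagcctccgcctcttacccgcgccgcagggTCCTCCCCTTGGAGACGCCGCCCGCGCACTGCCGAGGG
Col4a2: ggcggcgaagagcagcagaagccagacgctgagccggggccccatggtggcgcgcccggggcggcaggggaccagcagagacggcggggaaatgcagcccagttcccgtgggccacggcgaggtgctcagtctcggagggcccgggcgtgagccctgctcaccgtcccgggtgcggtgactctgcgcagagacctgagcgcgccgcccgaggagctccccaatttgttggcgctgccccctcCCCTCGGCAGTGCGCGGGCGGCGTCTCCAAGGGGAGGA
Col6a1 and Col6a2, chains of the type VI filament, are neighbours on chromosome 10, both on the minus strand, at chr10:76726015-76726294 and chr10:76623375-76623654, each with its own start (for Col6a2, 1 of its 2 annotated starts). Capitals mark the GC box GGGCGG on either strand, and the window of Col6a1 holds none.
Col6a1: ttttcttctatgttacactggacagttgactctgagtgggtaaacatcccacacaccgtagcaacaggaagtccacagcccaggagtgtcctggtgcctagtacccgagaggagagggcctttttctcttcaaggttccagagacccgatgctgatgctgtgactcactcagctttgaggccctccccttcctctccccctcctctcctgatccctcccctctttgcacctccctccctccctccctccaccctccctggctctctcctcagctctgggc
Col6a2: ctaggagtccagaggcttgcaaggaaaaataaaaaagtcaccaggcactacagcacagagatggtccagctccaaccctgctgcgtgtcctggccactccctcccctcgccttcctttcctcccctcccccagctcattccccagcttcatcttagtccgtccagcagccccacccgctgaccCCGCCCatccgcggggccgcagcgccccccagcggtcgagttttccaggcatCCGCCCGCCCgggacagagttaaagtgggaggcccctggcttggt
Col4a5 and Col4a6 lie head to head on the X chromosome, at chrX:141475169-141475448 on the plus strand and chrX:141474047-141474326 on the minus strand, with starts 1343 bases apart. Here the capitals mark GC boxes and the CCAAT box, again on either strand.
Col4a5: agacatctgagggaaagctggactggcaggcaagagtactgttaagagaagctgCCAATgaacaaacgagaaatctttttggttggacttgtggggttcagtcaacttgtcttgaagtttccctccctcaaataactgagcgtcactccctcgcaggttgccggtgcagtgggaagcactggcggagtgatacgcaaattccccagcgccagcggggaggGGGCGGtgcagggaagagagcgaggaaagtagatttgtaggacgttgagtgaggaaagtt
Col4a6: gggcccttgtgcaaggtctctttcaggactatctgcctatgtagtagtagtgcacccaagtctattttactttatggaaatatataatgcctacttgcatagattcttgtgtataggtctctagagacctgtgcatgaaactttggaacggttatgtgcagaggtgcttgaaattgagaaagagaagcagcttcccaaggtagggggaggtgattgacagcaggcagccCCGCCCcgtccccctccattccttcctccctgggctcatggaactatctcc

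The GC box was found in the windows of 16 of the 27 genes, among them these 4 type IV chains and Col6a2. CCAAT on either strand was found in 12 of the 27, including Col4a1, Col4a2 and Col4a5. TATAAA on the gene's own strand was found in 5, which were Col3a1, Col10a1, Col11a2, Col13a1 and Col17a1. Some genes had more than 1 window. Counted by window, 17 of the 30 windows of these genes held the GC box, 12 CCAAT and 5 TATAAA. Among all 32851 mouse windows of 300 bases, 35.7% held the GC box, 37.4% CCAAT and 8.32% TATAAA. These are matches of letters in the window and not measured sites.

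After elevated pressure 27 of the 36 collagen genes had a higher and 9 a lower mean than the control, but the differences were small and none passed the test over all genes. The median difference was 0.11 on the scale log2(intensity + 16), where 16 is added to each intensity before the log and 1 unit is a doubling. The 36 values ran from -0.27 for Col4a5 to 0.37 for Col14a1. At an adjusted p under 0.05 (limma, Benjamini-Hochberg over 12393 genes), 0 of 36 were called against 0% of all genes, and the lowest adjusted p among them was 0.849. At an unadjusted p under 0.05 there were 4 collagen genes higher, Col18a1, Col5a1, Col9a3 and Col19a1, and 0 lower. Among all genes 2.65% were higher and 1.32% lower at that level. Over all genes the median difference was -0.01 and 47.3% were higher, and with quantile normalization these were 0.02 and 6808 of 12393, while the collagen median was then 0.14. Among genes with a mean intensity above 1000, 13 of 16 collagen genes were higher, where 39.6% of all genes of that range were.

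**Figure D1:**
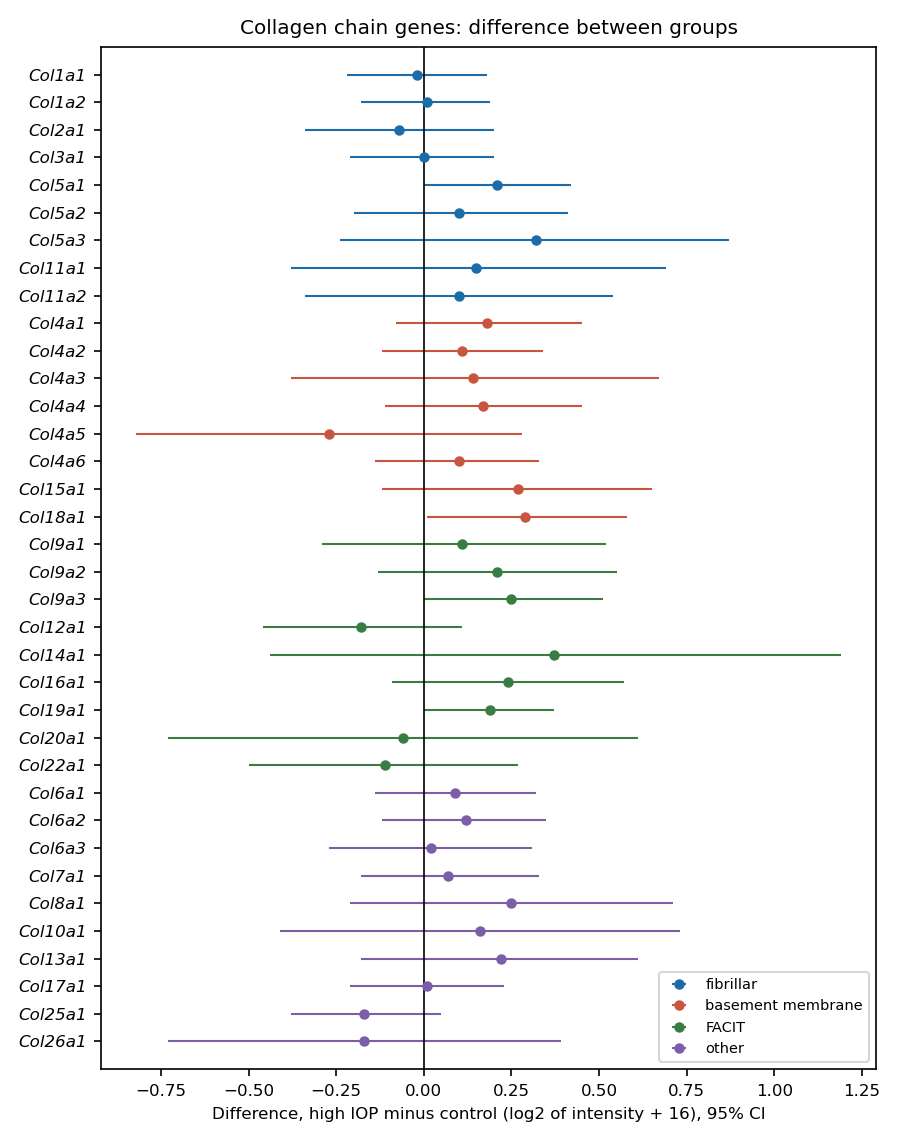
Difference between the group means of each of the 36 collagen genes on the log2(intensity + 16) scale, high IOP minus control, with its 95% confidence interval from limma (5 arrays a group), coloured by class. Most points lie to the right of 0, the intervals of 32 genes include 0, and those of Col18a1, Col5a1, Col9a3 and Col19a1 lie at or just above it.

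The intervals set how large a change could have been missed. The 95% interval of 25 of the 36 genes lay within 1.5-fold in both directions and that of 35 within 2-fold. The share of all genes within 1.5-fold was not computed. Col14a1 was the exception, with an interval from -0.44 to 1.19. These folds hold on the scale with the constant added before the log, where the intervals of 95.5% of all genes lay within 2-fold. For the 9 collagen genes with a mean intensity under 100, the constant shrinks the fold, so larger changes of intensity could have been missed. The difference of Col4a3, for example, was 0.14, and 0.27 when 1 was added instead. Leaving out 1 array changed the difference of 30 of the 36 genes by over 1.5 times in at least 1 case, or turned its sign. This was not counted over all genes, so it is not shown to be particular to collagens. In no collagen gene did every high IOP array lie above every control array, or every one below. Among all genes 0.403% separated upward in that way and 0.226% downward.

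By class, basement membrane chains were higher in 7 of 8 cases with a median difference of 0.16. FACIT chains were higher in 6 of 9 (median 0.19), fibrillar chains in 6 of 9 (median 0.10) and the other chains in 8 of 10 (median 0.08). The difference between classes was not tested. The class medians moved with single arrays: the fibrillar median was -0.01 without control array 2, 0.00 without high IOP array 4 and 0.04 without high IOP array 1, the median of the other chains was -0.01 without control array 4, and the basement membrane median was 0.08 without high IOP array 4. When all probe sets of a gene were averaged, the fibrillar median was 0.00.

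Pools of the control group differed from one another in their collagen signal. The lowest value of a collagen gene fell on control array 4 for 10 of the 36 genes and on control array 2 for 8, and the highest fell on high IOP array 4 for 10. As shares these were 27.8%, 22.2% and 27.8%, against 8.55%, 9.86% and 14.3% of all genes. On control array 4 only 6 of the 36 genes lay above their own mean over 10 arrays, and on control array 2 only 10, whereas 30 did on control array 5. The mean deviation of the 36 genes from their own means was -0.02, -0.17, -0.01, -0.19 and 0.15 on control arrays 1 to 5 and 0.05, 0.05, -0.04, 0.16 and 0.02 on high IOP arrays 1 to 5. The groups overlapped, the control arrays spread more widely (SD 0.139 against 0.0712, n = 5 each), and the group means of -0.05 and 0.05 lay closer together than the spread among control arrays.

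**Figure D2:**
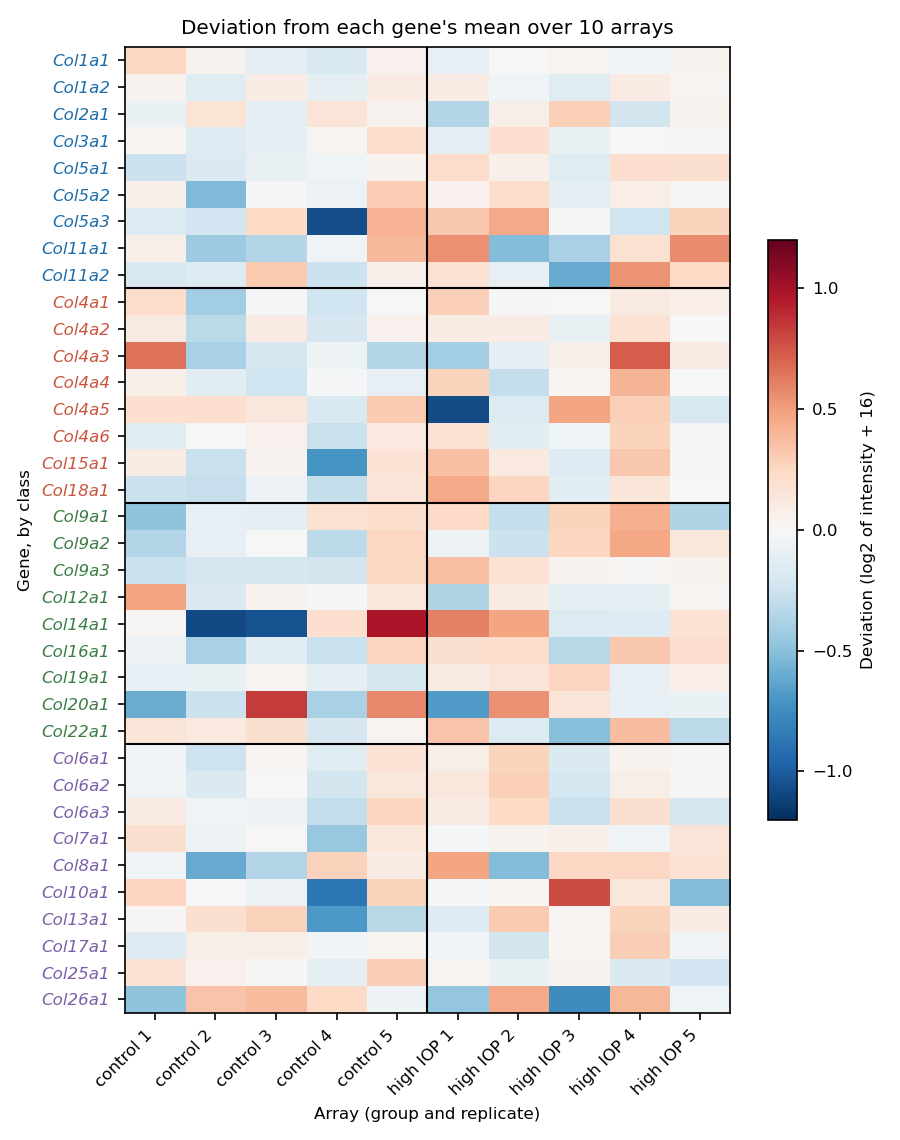
Heat map of each collagen gene (rows, by class) on each array (columns), coloured by its deviation from that gene's mean over 10 arrays in units of log2(intensity + 16). Control columns 2 and 4 are mostly blue (10 and 6 of 36 genes above their mean), control column 5 is mostly red (30 of 36), and the rows with the strongest colours include Col14a1, Col20a1, Col10a1 and Col5a3.

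The fibrils of sclera and meninges are built mainly from Col1a1, Col1a2 and Col3a1, the chains of types I and III, and their group means were nearly equal. Col1a1 read 7547, 6570, 5877, 5600 and 6621 on control arrays 1 to 5 and 5957, 6407, 6533, 6238 and 6550 on high IOP arrays 1 to 5. Control array 1 was highest and control array 4 lowest, with the high IOP arrays between them. The difference was -0.02 (95% interval -0.22 to 0.18). Col1a2, which encodes the partner chain, read 9664, 8522, 10005, 8744 and 10097 on control arrays 1 to 5 and 10030, 9093, 8499, 10076 and 9612 on high IOP arrays 1 to 5. All 10 values lay within 1.19-fold, and the difference was 0.01 (interval -0.18 to 0.19). Col3a1, found in distensible tissue and vessel walls, read 8670, 7640, 7855, 8669 and 9794 on control arrays 1 to 5 and 7893, 9770, 7964, 8468 and 8413 on high IOP arrays 1 to 5. The groups overlapped almost completely, with a difference of 0.00 (interval -0.21 to 0.20), just below 0. Equal array medians put Col1a1 at 0.01 and Col3a1 at 0.02, and quantile normalization put them at 0.02 and 0.03, so that both signs changed with the scaling. A dimmer probe set of Col3a1, with a mean intensity of 2157 against 8514, had a difference of -0.18 (standard error 0.237).

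Type V collagen starts fibrils and limits their width, and its chain Col5a1 was 1 of the 4 genes at an unadjusted p under 0.05. Col5a1 read 1942, 2059, 2182, 2244 and 2387 on control arrays 1 to 5 and 2699, 2428, 2093, 2670 and 2645 on high IOP arrays 1 to 5. Of the high IOP arrays 4 lay above all 5 controls, and array 3 lay among the controls. The group means were 2163 ± 171 and 2507 ± 255 (SD, n = 5 each), a difference of 0.21 with a standard error of 0.0943 and a 95% interval from 0.00 to 0.42 (limma, adjusted p = 0.849). The other 2 probe sets of Col5a1, with mean intensities of 443 and 145, had differences of 0.02 and -0.24, and with the mean over the 3 probe sets the difference was 0.00. The others did not follow the chosen one over the 10 arrays, with r of 0.11 and -0.461 given as a description. Col5a3, a rarer chain of the same type, read 320, 304, 428, 164 and 486 on control arrays 1 to 5 and 454, 499, 355, 302 and 436 on high IOP arrays 1 to 5. Control array 4 was the lowest, and the difference of 0.32 (interval -0.24 to 0.87) was 0.09 without it. Col5a2 ranged from 1101 to 1980, with a difference of 0.10 and another probe set at 0.19.

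The remaining fibrillar chains are best known from cartilage and the vitreous. Col2a1, the chain of type II, ranged from 134 to 218, with a difference of -0.07 (interval -0.34 to 0.20). Col11a1 ranged from 355 to 772 (difference 0.15) and a second probe set of it had a difference of -0.21. Its difference was 0.30 without high IOP array 2, 0.03 without high IOP array 5 and 0.04 without high IOP array 1. Col11a2 ranged from 62.9 to 159, with a difference of 0.10. Of the cartilage markers Acan, Matn1, Matn3, Hapln1 and Snorc were dim, with mean intensities up to 39.9 in control and 46.1 in high IOP tissue, while Cnmd had means of 4266 and 4153, Chad of 1072 and 1332 and Comp of 455 and 527. Sox9, which astrocytes also express, had means of 4210 and 4264.

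Among basement membrane chains Col18a1, whose C-terminal fragment is endostatin, had the smallest p of all 36 genes. Col18a1 read 2469, 2441, 2817, 2422 and 3290 on control arrays 1 to 5 and 4061, 3527, 2711, 3272 and 2965 on high IOP arrays 1 to 5. High IOP arrays 1 and 2 lay above every control, and arrays 3, 4 and 5 lay within the range of the controls. The means were 2688 ± 374 and 3307 ± 522 (SD, n = 5 each), a difference of 0.29 with a standard error of 0.128 and a 95% interval from 0.01 to 0.58 (limma, adjusted p = 0.849). Its second probe set gave 0.28 and followed the first over the 10 arrays (r = 0.899, as a description). The difference was 0.22 without high IOP array 1 and 0.37 without control array 5. Col15a1, its closest relative, ranged from 791 on control array 4 to 1681 on high IOP array 1, and its difference of 0.27 was 0.12 without control array 4.

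The type IV network found in nearly all basement membranes is made of Col4a1 and Col4a2. Col4a1 read 4664, 2994, 3976, 3398 and 3982 on control arrays 1 to 5 and 4892, 3970, 3991, 4333 and 4229 on high IOP arrays 1 to 5. Control array 2 was the lowest and high IOP array 1 the highest, and the other arrays of both groups lay between them. Its means were 3803 ± 637 and 4283 ± 374 (SD, n = 5 each), a difference of 0.18 (interval -0.08 to 0.45) at both of its probe sets. Without control array 2 it was 0.10. Col4a2 read 4544, 3380, 4515, 3664 and 4395 on control arrays 1 to 5 and 4512, 4508, 3973, 4767 and 4236 on high IOP arrays 1 to 5. Its low arrays were again control 2 and 4, and the difference was 0.11 (interval -0.12 to 0.34), or 0.04 without control array 2.

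Other type IV chains are known from fewer membranes. Col4a6 read 2370, 2643, 2719, 2179 and 2856 on control arrays 1 to 5 and 2967, 2403, 2534, 3176 and 2594 on high IOP arrays 1 to 5. The groups overlapped, the difference was 0.10 (interval -0.14 to 0.33), and a dimmer probe set stood at -0.10. Col4a5 read 2623, 2617, 2505, 1998 and 2831 on control arrays 1 to 5 and 1071, 2034, 3165, 2782 and 1993 on high IOP arrays 1 to 5. High IOP array 1 was well below the other 9, which lay between 1993 and 3165 in both groups. The difference of -0.27 (interval -0.82 to 0.28) was -0.03 without that array. Its second probe set followed it over the arrays (r = 0.945, as a description) with a difference of -0.23. Col4a3 and Col4a4, partners of Col4a5 in the membranes of kidney and inner ear, were dim, from 9.77 to 40.4 and from 57.3 to 102, with differences of 0.14 and 0.17. Whether such dim probe sets lay above background is not known from the values.

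**Figure D3:**
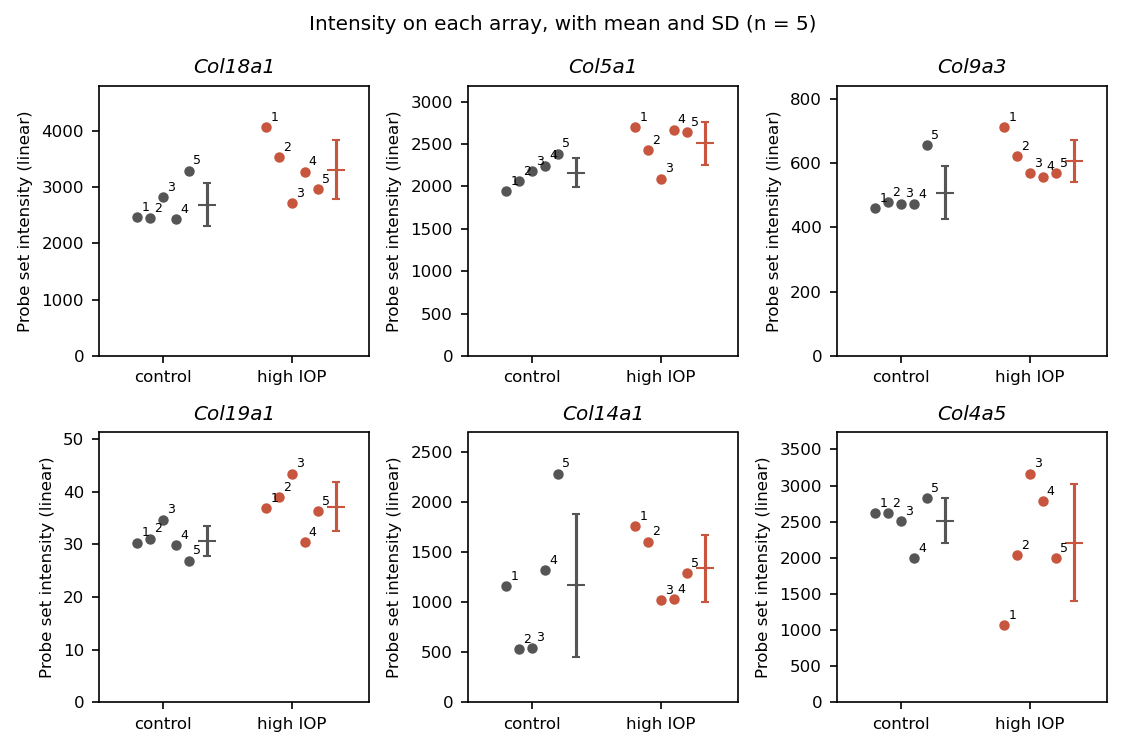
Probe set intensity (linear scale from 0) of 6 collagen genes on each array, with the replicate number beside each point and the mean and SD of 5 arrays to its right. Col18a1, Col5a1, Col9a3 and Col19a1 have higher means in high IOP tissue with overlapping points, Col14a1 spans 533 to 2280 within the controls, and Col4a5 has its lowest value, 1071, on high IOP array 1.

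FACIT collagens coat fibrils, and type IX does so in cartilage and in the vitreous. Its chain Col9a3 read 460, 479, 474, 472 and 657 on control arrays 1 to 5 and 712, 623, 569, 558 and 570 on high IOP arrays 1 to 5. Control array 5 lay apart from the other 4 controls, which were all below every high IOP array. The means were 509 ± 83.2 and 606 ± 64.4 (SD, n = 5 each), a difference of 0.25 with a standard error of 0.114 and a 95% interval from 0.00 to 0.51 (limma, adjusted p = 0.849). Its other probe sets stood at 0.18 and -0.08 and did not follow the chosen one (r = 0.0546 and -0.0862, as a description). With the mean over its 3 probe sets the difference was 0.12. Col9a1 read 1065, 1401, 1392, 1706 and 1737 on control arrays 1 to 5 and 1755, 1223, 1807, 2021 and 1165 on high IOP arrays 1 to 5. The groups overlapped, with a difference of 0.11 (interval -0.29 to 0.52) that was 0.01 without control array 1 and 0.22 without high IOP array 5. Col9a2 read 304, 366, 390, 312 and 468 on control arrays 1 to 5 and 375, 325, 472, 548 and 432 on high IOP arrays 1 to 5. High IOP arrays 3 and 4 were the only ones above every control, and the difference was 0.21 (interval -0.13 to 0.55).

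Col14a1, a FACIT chain on the surface of type I fibrils, had the largest SD between pools of the 36 genes on the log2(intensity + 16) scale. It read 1156, 533, 547, 1320 and 2280 on control arrays 1 to 5 and 1757, 1602, 1021, 1026 and 1291 on high IOP arrays 1 to 5. The 5 control pools alone covered the whole span of 4.28-fold, and all high IOP pools lay within it, although the dim Col10a1 had a wider span of 4.89-fold. Its SD over the 10 arrays was 0.66 on the log2 scale, larger than that of 97.7% of all genes, where the median over all genes and over the 36 collagen genes was 0.22 each. The difference of 0.37 (interval -0.44 to 1.19) was 0.15 without control array 2, 0.16 without control array 3 and 0.67 without control array 5. A second probe set tracked it closely (r = 0.974, as a description) with a difference of 0.48.

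Col19a1, a FACIT chain described in basement membrane zones and in synapses, read 30.3, 31.1, 34.7, 29.9 and 26.9 on control arrays 1 to 5 and 36.8, 38.9, 43.4, 30.4 and 36.3 on high IOP arrays 1 to 5. High IOP array 4 fell among the controls and the other 4 lay above all of them. The means were 30.6 ± 2.81 and 37.2 ± 4.71 (SD, n = 5 each), a difference of 0.19 with a standard error of 0.0842 and a 95% interval from 0.00 to 0.37 (limma, adjusted p = 0.849). At these intensities the 16 added before the log shrinks the difference, and a second probe set stood at 0.06 with no likeness over the arrays (r = -0.134, as a description). Col12a1, which binds the surface of type I fibrils, read 347, 216, 253, 241 and 270 on control arrays 1 to 5 and 188, 263, 227, 227 and 252 on high IOP arrays 1 to 5. Control array 1 was the highest, and the difference of -0.18 (interval -0.46 to 0.11) was -0.08 without it. Col16a1 ranged from 406 to 676 (difference 0.24), Col22a1 from 191 to 367 (-0.11) and Col20a1 from 48.7 to 169 (-0.06). Col20a1 stood at 0.14 without control array 3, the opposite sign, and Col22a1 at -0.21 without high IOP array 1 and 0.00 without high IOP array 3.

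Type VI collagen forms beaded filaments that tie cells and basement membranes to the fibrils around them. Col6a1 read 6466, 5585, 6748, 5988 and 7461 on control arrays 1 to 5 and 6945, 7986, 5881, 6813 and 6665 on high IOP arrays 1 to 5. Col6a2 read 8256, 7533, 8529, 7275 and 9322 on control arrays 1 to 5 and 9298, 10376, 7331, 8891 and 8575 on high IOP arrays 1 to 5. On both genes high IOP array 2 was the highest, and control arrays 2 and 4 and high IOP array 3 were the lowest. The differences were 0.09 (interval -0.14 to 0.32) and 0.12 (interval -0.12 to 0.35). Col6a3, the largest chain, read 2037, 1861, 1823, 1559 and 2290 on control arrays 1 to 5 and 2050, 2254, 1588, 2188 and 1657 on high IOP arrays 1 to 5. Control array 5 was the highest, control array 4 the lowest, and the difference was 0.02 (interval -0.27 to 0.31).

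The other collagens include network and membrane-spanning chains. Col10a1, the chain of hypertrophic cartilage, read 60.6, 48.1, 45.3, 19.2 and 61.0 on control arrays 1 to 5 and 47.5, 48.9, 94.0, 54.2 and 28.5 on high IOP arrays 1 to 5. It spanned 4.89-fold, from control array 4 to high IOP array 3, and its difference of 0.16 turned to -0.04 without control array 4. Col17a1, a membrane-spanning collagen of epithelial attachment, read 19.6, 25.6, 25.8, 22.8 and 24.4 on control arrays 1 to 5 and 22.9, 18.2, 24.3, 32.7 and 22.8 on high IOP arrays 1 to 5. It was dim in every pool, with a difference of 0.01 that had the opposite sign under array weights (-0.01). Col25a1, a membrane-spanning collagen of neurons, read 65.9, 59.3, 57.4, 50.9 and 73.1 on control arrays 1 to 5 and 57.6, 52.7, 58.9, 48.5 and 46.0 on high IOP arrays 1 to 5. High IOP arrays 4 and 5 lay below every control, and the difference of -0.17 (interval -0.38 to 0.05) had the smallest p of the 9 lower genes (limma, adjusted p = 0.849). Col26a1 read 61.3, 121, 125, 112 and 88.1 on control arrays 1 to 5 and 62.5, 132, 48.0, 127 and 88.6 on high IOP arrays 1 to 5. It varied as widely within each group as between them, with a difference of -0.17 that was 0.00 without high IOP array 3. Col8a1, found in vessel walls, ranged from 323 to 698 (difference 0.25, another probe set -0.08). Col13a1, which spans the membrane, ranged from 320 to 656 (difference 0.22, or 0.07 without control array 4). Col7a1, of the anchoring fibrils under epithelium, ranged from 20.8 to 41.5 (difference 0.07, or -0.03 without control array 4).

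Chains that assemble into 1 molecule, and Col1a1 with Col3a1, whose products share fibrils, were compared over the 10 arrays. These were 11 gene pairs, with two-sided permutation p-values (100000 resamples) adjusted over the 11. The share of all gene pairs that would pass was not computed, so a pass is not shown to be particular to chain pairs. The top-ranked gene outside the family had r = 0.947 with Col4a1, as listed below. Col6a1 and Col6a2 followed each other most closely, with r = 0.96 (permutation p = 8e-05, adjusted p = 0.00088) and Spearman's coefficient = 0.939 (permutation p = 0.00023, adjusted p = 0.00253). Without control array 2 and high IOP array 2, the arrays farthest from the median of Col6a1, r was 0.962, and r was 0.958 after each group's mean was taken out. Col4a1 and Col4a2, which share the start region printed above, had r = 0.858 (permutation p = 0.00208, adjusted p = 0.0114) and Spearman's coefficient = 0.661 (permutation p = 0.0435, adjusted p = 0.12). Without the farthest arrays, control 2 and high IOP 1, r was 0.755, and r was 0.835 within groups. The adjusted p rose to 0.127 without control array 2 alone (r = 0.708) and to 0.0733 without control array 4 (r = 0.827), with 9 arrays in each case. For these pairs, leaving out single arrays other than high IOP array 1 was chosen after seeing the data.

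The remaining 9 pairs did not pass. Col1a1 and Col1a2 showed r = 0.0157 and Spearman's coefficient = 0.0182 (permutation p = 0.966 and 0.974, adjusted p = 0.966 and 0.974), although both chains enter the same molecule. Spearman's coefficient over the 9 pairs ran from 0.0182 to 0.782 (permutation, adjusted p from 0.059 to 0.974), and r without the farthest 2 arrays from -0.532 for this pair to 0.829 for Col6a1 and Col6a3. Col1a1 and Col1a2 varied little, with SDs over the arrays of 0.12 and 0.10 on the log2 scale. The 2 probe sets of Col1a1 had r = 0.287 with each other and those of Col1a2 r = 0.556, as a description. Whether the low r between these chains comes from the transcripts or from the probe sets was not tested. Between probe sets r was also low for Col5a2 (0.19) and Col11a1 (0.209), but 0.924 for Col4a1 and 0.993 for Col6a2. Col4a5 and Col4a6 had r = -0.0683 and Spearman's coefficient = 0.103 (permutation p = 0.85 and 0.788, adjusted p = 0.936 and 0.866), and r was 0.53 without high IOP array 1 (adjusted p = 0.264). For Col4a3 and Col4a4 r was 0.516 (permutation p = 0.12, adjusted p = 0.263), which became 0.802 without high IOP array 1 (adjusted p = 0.0183) and -0.0836 without control array 1 and high IOP array 4. Col6a1 and Col6a3 had r = 0.734 (permutation p = 0.0168, adjusted p = 0.0615). The pair passed without control array 2 (r = 0.835, permutation, adjusted p = 0.0174) or high IOP array 5 (r = 0.792, permutation, adjusted p = 0.0427). Both of these settings were chosen after seeing the data. With any other single array left out the pair did not pass (permutation, adjusted p from 0.0727 to 0.185). Col9a1 had r = 0.605 with Col9a2 (permutation p = 0.0647, adjusted p = 0.178) and 0.35 with Col9a3 (permutation p = 0.316, adjusted p = 0.434). Col5a1 with Col5a2, Col11a1 with Col11a2 and Col1a1 with Col3a1 had r of 0.448, 0.482 and 0.207 (permutation p = 0.196, 0.16 and 0.56, adjusted p = 0.308, 0.293 and 0.685).

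**Figure D4:**
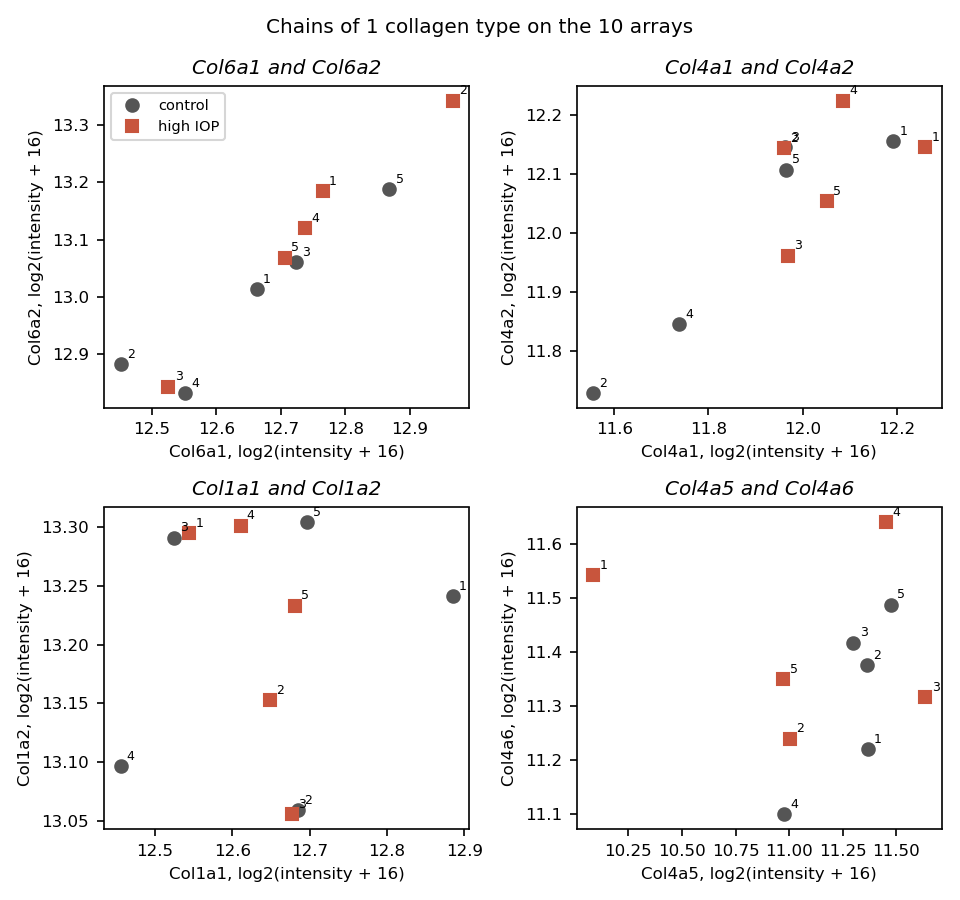
Values of 2 chains of 1 collagen type against each other on the 10 arrays, in log2(intensity + 16), with control pools as circles and high IOP pools as squares and the replicate number beside each. Col6a1 and Col6a2 lie along a line (r = 0.96), Col4a1 and Col4a2 do so with control 2 and 4 at the low end (r = 0.858), Col1a1 and Col1a2 show none (r = 0.0157), and in the plot of Col4a5 and Col4a6 high IOP array 1 lies far to the left.

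Between classes, the median r over gene pairs across the 10 arrays was 0.388 within basement membrane chains (28 pairs), 0.207 within fibrillar (36 pairs), 0.148 within the other chains (45 pairs) and 0.06 within FACIT chains (36 pairs). Fibrillar against basement membrane chains had a median of 0.339 over 72 pairs. These are descriptions over arrays that share their pools and labelling, with pairs that share genes.

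Outside the family, the genes most like Col4a1 over the 10 arrays were Pkd2l2 (r = 0.947), the growth factor gene Tgfb1 (0.946), the asparagine synthetase gene Asns (0.937), Des, which encodes the muscle filament desmin (0.934), and the transcription factor gene Snai1 (0.918). For Col1a1 they were Tram1 (0.936), the protease gene Furin (0.929), Folr1 (0.902), Ddx17 (0.89) and Dhx9 (0.878). For Col14a1 they were the proteoglycan gene Epyc (0.973), the Wnt-binding protein gene Sfrp4 (0.963), the growth factor gene Igf1 (0.923), Osgin1 (0.91) and Phex (0.904), and for Col4a5 Usf1 (0.984), Cdh2 (0.982), Tfcp2 (0.981), Adam9 (0.979) and Rnf44 (0.977), where these 2 searches were added after the values were seen. They are the top of a ranking of all other genes and are given as a description. Col4a5 was well below its other values on high IOP array 1, where 28.5% of all genes had their lowest value. These r were not computed without that array, so how far it alone sets them is not known.

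Genes that make, bind and remove collagen were taken from lists. None of the 5 lists had a member at an adjusted p under 0.05 (limma), against 0% of all genes. Of 31 genes of collagen synthesis and processing 23 were measured, of which 15 were higher and 8 lower (median 0.04, 0 at an unadjusted p under 0.05). Among them were the lysyl hydroxylase gene Plod1 at 0.21 and the crosslinking enzyme gene Loxl1 at 0.30. The prolyl hydroxylase gene P4ha1 stood at -0.22 and Plod2 at -0.34, each with another probe set above 0 (0.14 and 0.10). Basement membrane partners of type IV collagen were higher in 12 of 14 cases measured from a list of 16 (median 0.17, 1 at an unadjusted p under 0.05). That gene was the laminin chain Lama2, with means of 2188 ± 189 and 2637 ± 236 (SD, n = 5 each) and a difference of 0.27 (limma, adjusted p = 0.849). Hspg2, which encodes perlecan, stood at 0.21, Lama3 at -0.20 and Lamc1 at -0.18 (another probe set 0.09).

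Proteoglycans and other proteins that bind fibrils were higher in 12 of 15 cases from a list of 16 (median 0.05), with Kera at 0.12, Comp at 0.26, Dcn at -0.09 and Thbs2 at -0.11 (another probe set 0.18). Of 6 collagen receptors measured from a list of 10, 2 were higher and 4 lower (median -0.10), with Ddr2 at 0.14, the uptake receptor gene Mrc2 at 0.02 (another probe set -0.20), the integrin chain Itgb1 at -0.20 and the inhibitory receptor gene Lair1 at -0.26. For Itgb1, 2 of its other probe sets were above 0. Of 11 genes of collagen breakdown, all measured, 7 were higher (median 0.02). These 3 lists had 0 members at an unadjusted p under 0.05 (limma). Mmp2, a gelatinase, had means of 1874 ± 861 and 2767 ± 913 (SD, n = 5 each) and a difference of 0.61 (limma, adjusted p = 0.849), with 0.63 at a second probe set. Mmp14 stood at 0.17 (another probe set -0.06), Ctsk at -0.11, and Timp2 at -0.09 with 1 of its other probe sets above 0.

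Markers of cell types that make collagen varied between pools too, and their part in the collagen values was not tested. Fibroblast markers were higher in 8 and lower in 8 of 16 cases (median -0.01, or 0.03 with quantile normalization), with summed intensities of 78369 to 91944 on control and 77839 to 91271 on high IOP arrays. Endothelial markers were higher in 7 of 12 cases (median 0.07), with 3 higher at an unadjusted p under 0.05 (2.65% of all genes were), and their sums ran from 17242 to 26236 and from 20095 to 26961. The 3, named after their values were seen, were Vwf at 0.36, Eng at 0.42 and Robo4 at 0.49. The 5 lower endothelial markers were Flt1 at -0.26, Pecam1 and Cdh5 at -0.20 each, Emcn at -0.13 and Kdr at -0.07. Other probe sets of Flt1 stood at 0.17 and 0.05. Pericyte and smooth muscle markers were higher in 6 of 11 (median 0.00), with sums of 22619 to 34843 and 25962 to 31030. On control array 2, where Col4a1, Col4a2 and Col14a1 were lowest, the mean deviation was -0.47 for pericyte and smooth muscle markers, -0.41 for endothelial and -0.10 for fibroblast markers. On control array 4, where 10 collagen genes were lowest, the same 3 lists stood at 0.19, 0.03 and -0.15. On high IOP array 1, where Col4a1, Col15a1 and Col18a1 were highest, they stood at 0.28, -0.29 and 0.01. On high IOP array 2, where Col6a1 and Col6a2 were highest, they stood at -0.41, -0.20 and 0.18. Pools also differed in neighbouring tissue: photoreceptor markers deviated by -1.01 on control array 2 and by 1.24 on control array 4, and pigment cell markers by -0.83 and 0.45. Cartilage markers were higher in 4 of 9 cases (median -0.03, or 0.01 with quantile normalization, sums 8287 to 12803 and 8294 to 11545). The dimmest marker of the fibroblast, endothelial, pericyte and cartilage lists was Hapln1 at a mean of 17.8, and whether it lay above background is not known. For astrocytes the list's median was -0.04 (3 of 10 higher) and for oligodendrocytes -0.14 (0 of 8). The mean deviation of oligodendrocyte markers was -0.77 on high IOP array 1. It was -0.16 to 0.19 on the other high IOP arrays and -0.14 to 0.36 on control arrays. For pigment cells the median was -0.01 (4 of 8, or 0.03 with quantile normalization) and for photoreceptors 0.39 (9 of 11). For skeletal muscle it was 0.21 (7 of 9) and for surface epithelium 0.08 (3 of 5). The 1 measured Schwann cell marker, Ncmap, stood at -0.30.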

How the data were processed

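Gene expression was measured on 10 arrays, 5 control and 5 high IOP pools. Values are those the authors deposited, 1 linear intensity per probe set and array (0.69 to 20168). How they summarised and normalized the arrays is not stated in the labels or headers. Besides 64 controls, the 22690 probe sets comprised 20380 annotated to 1 gene symbol, 691 to several and 1555 to none. The probe set with the highest mean represented each of 12393 genes, and all 36 members passed because no filter on dim genes was used.

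Groups were compared with limma 3.58.1 (R 4.3.3, lmFit and eBayes, no covariates) on log2(intensity + 16), fitted across all genes with Benjamini-Hochberg adjustment. The test was checked on simulated data. Correlations and plots used Python 3.11.15, NumPy 2.4.6, SciPy 1.17.1 and Matplotlib 3.10.9. With 5 pools a group, p-values measure the spread between pools. Whether equal replicate numbers mark the same mice is not stated, their deviations did not all correlate, and the fit treats pools as independent.

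The members, classes and lists were chosen with earlier results of these data known. Values on every array are given for genes at an unadjusted p under 0.05, the 4 with the smallest p in each direction, up to 3 bright members of the chain pairs a class, and the most and least variable member of each class. From each pathway list, 2 genes a direction are named by smallest p. The alternatives were quantile or median scaling, other pseudocounts (1, 64), the mean over probe sets, leaving out the dimmest 25% of genes, array weights, a robust variance with a trend, a replicate block and leaving out each array.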

Additional observations from a re-analysis of the deposited data

Results flagged for a closer look

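Of 72 groups of 5 arrays examined (36 genes in 2 groups), 2 had an array that lay apart from the other 4 by Dixon's criterion at its 95% level, where chance alone marks about 1 in 20. Col9a3 on control array 5 had an intensity of 657, against 479 for the nearest other control array. Without that array the difference of Col9a3 was 0.35 against 0.25 with all arrays. Col16a1, a FACIT chain, had an intensity of 424 on high IOP array 3, against 614 for the nearest other array of its group, and its difference was 0.35 without that array against 0.24.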

How the results depend on the processing

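The count of called collagen genes was 0 under every alternative, at an adjusted p under 0.05 (limma). The 4 genes at an unadjusted p under 0.05 became 1 with quantile normalization, 1 with equal array medians and 2 with a pseudocount of 1. They became 3 with a pseudocount of 64 and 3 without the dimmest 25% of genes. The count was 1 with the mean over the probe sets of a gene, 2 with a trended and robust variance and 2 with array weights. In a limma fit over all probe sets, unadjusted p was 0.0435 for the chosen probe set of Col18a1. It was 0.0536 for Col5a1, 0.0505 for Col9a3 and 0.0536 for Col19a1. Leaving out each array in turn gave 0 to 4, with 0 without control array 2 or without high IOP array 1. The number of higher genes then ran from 22 to 29 and the median difference of all 36 from 0.07 to 0.15. The deviations of arrays with equal replicate numbers had r from -0.0798 to 0.213 over the 5 pairs, which does not show a pairing, and 2 of the 5 control arrays correlated best with their own number. In a limma fit with a replicate block, 0 of the 36 collagen genes had an unadjusted p under 0.05.

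The sign turned for Col1a1 and Col3a1 with quantile normalization (0.02 and 0.03), equal medians (0.01 and 0.02) and array weights (0.01 and 0.03). Array weights also turned Col9a1 (-0.03), Col17a1 (-0.01), Col10a1 and Col6a3 (both 0.00, just below 0). The mean over probe sets turned Col1a1 (0.01), Col11a1 (-0.03), Col5a1, Col1a2 and Col4a6 (all 3 at 0.00, just below 0). Quantile normalization turned r of Col1a1 with Col1a2 to -0.0781. The cause was not tested. Of the 36 genes 18 kept their sign in every setting, which was not counted over all genes. Leaving out 1 array turned the sign of 14 genes, whose differences ran from -0.07 to 0.04 for Col1a1, -0.03 to 0.05 for Col1a2, -0.15 to 0.01 for Col2a1, -0.05 to 0.05 for Col3a1, -0.02 to 0.19 for Col5a2, -0.02 to 0.26 for Col11a2, -0.02 to 0.33 for Col4a3, -0.22 to 0.14 for Col20a1, -0.22 to 0.00 for Col22a1, -0.05 to 0.09 for Col6a3, -0.03 to 0.13 for Col7a1, -0.04 to 0.31 for Col10a1, -0.06 to 0.07 for Col17a1 and -0.31 to 0.00 for Col26a1. For the chain pairs, r then ran from -0.239 to 0.134 for Col1a1 and Col1a2, 0.708 to 0.886 for Col4a1 and Col4a2, 0.164 to 0.802 for Col4a3 and Col4a4, -0.259 to 0.53 for Col4a5 and Col4a6 and 0.673 to 0.835 for Col6a1 and Col6a3. Of the collagen genes 9 had a mean intensity under 100, where the signal over background is not known.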
